A study of Mus musculus with 72 samples.

Results

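The ventricles of mice with 1 working copy of Gnb5 were compared with those of wild-type mice, as 6 Gnb5+/- against 6 Gnb5+/+ ventricular RNA-seq libraries, 12 of the 72 libraries of the series, chosen by the genotype and tissue in their labels. All were male mice of 18 weeks, and each library came from the right and left ventricles of 1 mouse. The mutant allele is a germline deletion of exon 3, made in a C57BL/6J background in a line recovered from frozen sperm, and Gnb5+/- mice hold it on 1 chromosome. The 6 Gnb5-/- ventricular libraries, from mice with the deletion on both chromosomes, entered the same fit and are quoted where they give scale, and the atria of the same mice are used once for comparison. The question is how large the effect of losing 1 copy is across gene families, and how large an effect the data still allow where none was called.

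Gnb5 encodes Gβ5, the divergent β subunit of heterotrimeric G proteins. Unlike the conventional subunits Gβ1 to Gβ4, which pair with a γ subunit, Gβ5 forms stable dimers with the R7 family of regulators of G protein signalling (Rgs6, Rgs7, Rgs9 and Rgs11), which speed up GTP hydrolysis on Gαi and Gαo. In the heart, vagal acetylcholine acts through the M2 muscarinic receptor and Gαi/o, and the released βγ dimers open the GIRK potassium channel of pacemaker and atrial cells, a signal that Rgs6 with Gβ5 shortens.

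The deletion removes a coding exon, but the exon that carries number 3 depends on the transcript model, and the study does not say which was meant. Both are shown because they define the engineered change. In Gnb5-201 exon 3 is chr9:75327133-75327269 (GRCm38, plus strand, 137 bases) and in Gnb5-202 it is chr9:75314272-75314383 (plus strand, 112 bases). Each is coding over its whole length, and neither length is a multiple of 3, the remainder being 2 and 1 bases. Both sequences are from the GENCODE M21 transcripts, 5′ to 3′, with no base marked.
Gnb5-201 exon 3: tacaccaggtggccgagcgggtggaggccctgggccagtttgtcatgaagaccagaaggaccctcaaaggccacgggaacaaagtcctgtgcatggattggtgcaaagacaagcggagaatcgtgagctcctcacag
Gnb5-202 exon 3: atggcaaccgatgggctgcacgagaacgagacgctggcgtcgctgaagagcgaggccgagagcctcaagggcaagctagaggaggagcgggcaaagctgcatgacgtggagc

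Between 29355469 and 36005977 reads were counted on genes in each of the 12 libraries, with a median of 30656697 in Gnb5+/- and 32524896 in Gnb5+/+ mice. Markers of ventricular cardiomyocytes summed to 25083 to 32634 CPM (read counts scaled to a common library size, TMM-normalised) and those of atrial cardiomyocytes to 102 to 332 CPM in the 12 libraries. The library of Gnb5+/- mouse 4 stood apart from the other 11. It lay at 72.5 on the first principal component, where the others lay between -17.0 and 2.35, and only 2.85% of its uniquely aligned reads fell outside genes, against 4.41% to 5.52%. Protein-coding genes with up to 1 kb of exon were at the median 0.84 (log2) above the average of the other 11 libraries in it. Those over 8 kb were 0.56 below. Of the 6 Gnb5+/- mice it had the highest summed erythroid, atrial, skeletal muscle, fibroblast, macrophage and epicardial markers and the lowest ventricular and endothelial ones. The cause was not tested, and values without this library are added beside many of the results below that it moved.

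Gnb5 itself was lowered to close to the midpoint between the other genotypes. Its level was 8.29 CPM in the lowest, 9.04 at the median and 11.6 in the highest of the Gnb5+/- mice, against 16.9, 18.1 and 21.02 CPM in Gnb5+/+ mice. The 2 groups did not overlap, and Gnb5-/- ventricles held 0.934 ± 0.330 CPM (SD, n = 6). The Gnb5+/- mean of 9.52 ± 1.31 CPM (SD, n = 6) compares with 9.64 CPM for the midpoint of the other 2 genotype means. The log2 fold change was -0.95 with a standard error (SE) of 0.14, or 51.9% of the wild-type level with a 95% interval of 42.3% to 63.6% (edgeR quasi-likelihood test, adjusted p = 0.0102; exact permutation p = 0.00216, two-sided, the smallest that 6 against 6 mice allow). Without mouse 4 it was -1.01, and over the 12 fits that left out 1 mouse it lay between -1.01 and -0.91, but the adjusted p rose to 0.0545 without Gnb5+/- mouse 11 and to 0.0515 without Gnb5+/- mouse 6.

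Across all genes, 3 of 14866 tested (0.0202%) were called at an adjusted p below 0.05, namely 1 that fell (0.00673%), Gnb5, and 2 that rose (0.0135%), Fam81a and Oaz2-ps. Fam81a, a protein-coding gene at chr9:70088511-70142560 on the minus strand, 5.16 Mb from Gnb5, ranged from 14.5 to 22.5 CPM (median 17.8) in Gnb5+/- mice and from 5.25 to 10.8 CPM (median 9.37) in Gnb5+/+ mice. The lowest Gnb5+/- mouse was thus above the highest wild-type mouse. Its log2 fold change was 1.12 (SE 0.16, 2.17-fold, 95% interval 1.73 to 2.72; adjusted p = 0.00731), and the call held in each of the 12 fits that left out 1 mouse, without mouse 4 at 1.05 (adjusted p = 0.0118). With the 12 Gnb5+/- and Gnb5+/+ libraries alone the adjusted p was 0.0859.

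Oaz2-ps is a processed pseudogene on the minus strand at chr3:135525964-135526532, derived from Oaz2, an ornithine decarboxylase antizyme gene whose own locus is on chromosome 9, 9.62 Mb from Gnb5. It drew 9 to 22 reads in each Gnb5+/- mouse, 100 in all, whereas 4 of the 6 Gnb5+/+ mice had 0 reads and the others 5 and 6. These are few reads, and an exact 0 allows up to 3. The fitted log2 change was 3.27 (SE 0.53, adjusted p = 0.0201), and with 4 wild-type libraries at 0 its size depends on the prior count of the fit. The call was lost in 8 of the 12 fits without 1 mouse, without mouse 4 at an adjusted p of 0.0518, with a range of 0.00193 to 0.0722. Oaz2 itself lay between 68.4 and 91.5 CPM in Gnb5+/- and between 55.8 and 78.1 CPM in Gnb5+/+ mice, which gave 0.10 on the log2 scale (95% interval -0.09 to 0.29).

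The pseudogene and its parent were compared because reads that differ at few bases can be placed on either. Over 471 aligned bases 465 were identical (98.7%). The stretch of 100 coding bases with most differences, within exon 4 of Oaz2, is printed with the 4 differing bases in capitals, each in the direction of its own transcript, at chr9:65687819-65687918 (plus strand) and chr3:135526233-135526332 (minus strand) of GRCm38.
Oaz2: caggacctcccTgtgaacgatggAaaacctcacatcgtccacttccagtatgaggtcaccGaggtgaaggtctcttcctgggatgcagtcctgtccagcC
Oaz2-ps: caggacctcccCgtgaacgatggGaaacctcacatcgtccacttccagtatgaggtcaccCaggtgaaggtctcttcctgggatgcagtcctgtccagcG
Whether the reads assigned to Oaz2-ps came from this locus or from Oaz2 cannot be told apart in counts per gene.

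**Figure D1:**
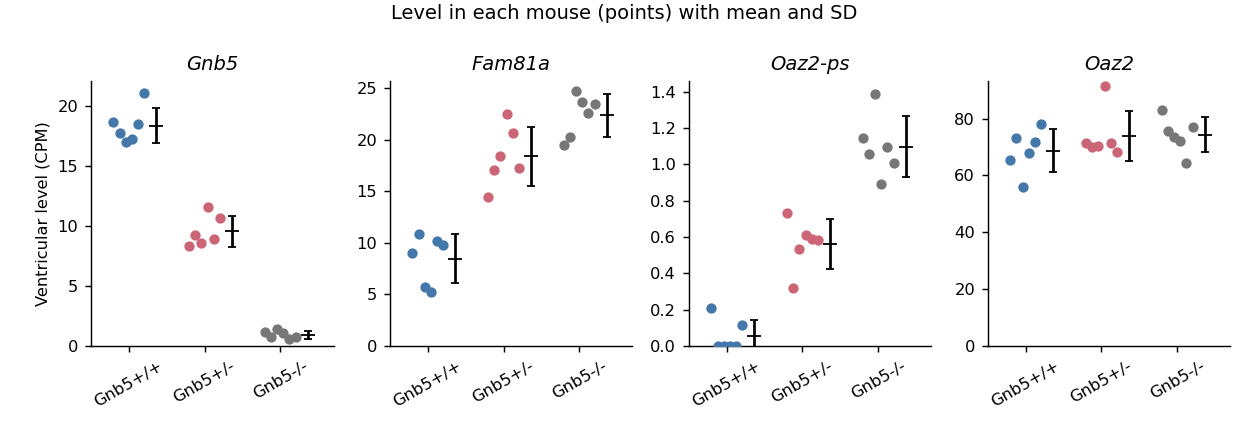
Level in CPM (TMM-normalised) of Gnb5, Fam81a, Oaz2-ps and its parent gene Oaz2 in each ventricular library, 6 mice per genotype, with the mean and SD beside the points. Gnb5 sits between 8.29 and 11.6 CPM in Gnb5+/- mice, below every wild-type mouse, Fam81a and Oaz2-ps sit above every wild-type mouse, and Oaz2 overlaps.

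DESeq2 called 3 genes (0.0202%) and limma-voom 4 (0.0269%), among them the same 3, but 1 gene was called with the 12 Gnb5+/- and Gnb5+/+ libraries alone, 0 with the replicate number as a block, and 1 to 5 when single mice were left out. An unadjusted p below 0.05 was reached by 720 genes (4.84%), 350 higher (2.35%) and 370 lower (2.49%) in Gnb5+/- mice, and in 25 genes (0.168%) the 2 groups did not overlap. Without mouse 4, 2 genes were called and 1027 of 14993 (6.85%) had an unadjusted p below 0.05. The gene that limma-voom added, Gm11868, was singled out after its values were seen. It too is a processed pseudogene, 98.0% identical to Cyb5r4, which lies on chromosome 9 at 11.7 Mb from Gnb5, and its log2 fold change in the edgeR fit was 2.32 (SE 0.71, adjusted p = 0.961) beside -0.10 for Cyb5r4. Gm11868 was at 3.50 ± 0.39 CPM in Gnb5+/- and 0.736 ± 1.67 CPM in Gnb5+/+ mice (SD, n = 6). The edgeR fit without Gnb5+/+ mouse 15 called it.

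The intervals show what a null result excludes. For each gene the bound is the larger end, in size, of the 95% interval of its log2 fold change, so that larger effects lie outside the interval. Over all genes tested the median bound was 0.41 (log2), or 1.32-fold, and the fold changes themselves had an SD of 0.23 (log2). The interval lay within ±0.5 (1.41-fold) for 64.6% of genes, within ±1 for 91.7% and within ±0.25 (1.19-fold) for 13.9%, and 95.9% of the intervals excluded a fall to 50% or below. Without mouse 4 the share within ±0.5 was 65.3%, that within ±1 was 90.2% and that within ±0.25 was 21.9%, with a median bound of 0.38.

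The bound depended on abundance. In genes under 1 CPM only 1.54% of intervals lay within ±0.5, in those of 1 to 10 CPM 55.5%, of 10 to 100 CPM 89.9% and at 100 CPM or more 89.6%. Protein-coding genes were within ±0.5 in 70.4% of cases and other gene types in 14.8%. To be called beside the present 3, a gene of median spread would have needed a log2 fold change of 0.79 (1.73-fold), and 66.0% of genes would have been called at a change of 1 or less. For genes under 1 CPM that median was 1.84, and none would have been called at a change of 1. Thus 577 genes (3.88%) had a fold change over 0.5 in size and 85 (0.572%) over 1, but 376 of the former were under 1 CPM.

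**Figure D2:**
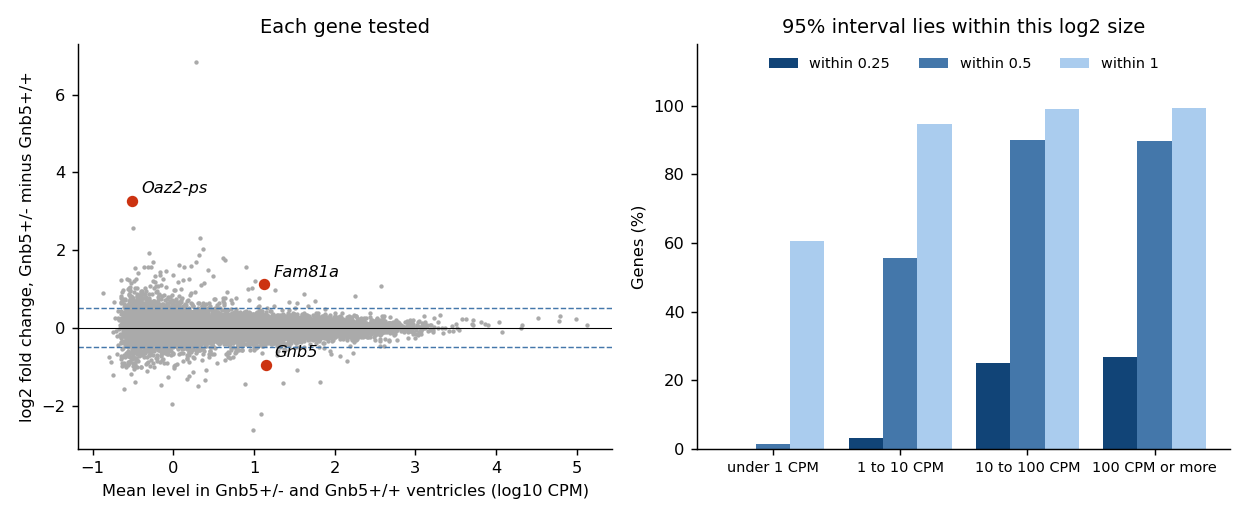
Left, log2 fold change of each tested gene against its mean level (log10 CPM), with the 3 called genes in red and dashed lines at ±0.5. Right, percent of genes in each abundance class whose 95% interval lies within ±0.25, ±0.5 or ±1, where the share within ±0.5 rises from 1.54% under 1 CPM to 89.9% at 10 to 100 CPM.

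Gene families were examined by 28 lists of 453 genes, 396 of which passed the filter on low counts. Of these, 1 was called, Gnb5, and 24 had an unadjusted p below 0.05, 8 higher and 16 lower (6.06%, against 4.84% of all genes tested). The median bound over the 396 genes was 0.45 (1.37-fold), with 228 (57.6%) within ±0.5 and 357 (90.2%) within ±1. List medians lay between -0.29 and 0.24, and 20 of 28 were within ±0.1 of 0, where the median of all genes was -0.003. Among the best bounded members were Gnb1, Mylk3, Asph, Gng12, Timp2 and Actn2, whose bounds lay between 0.14 and 0.19.

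**Figure D3:**
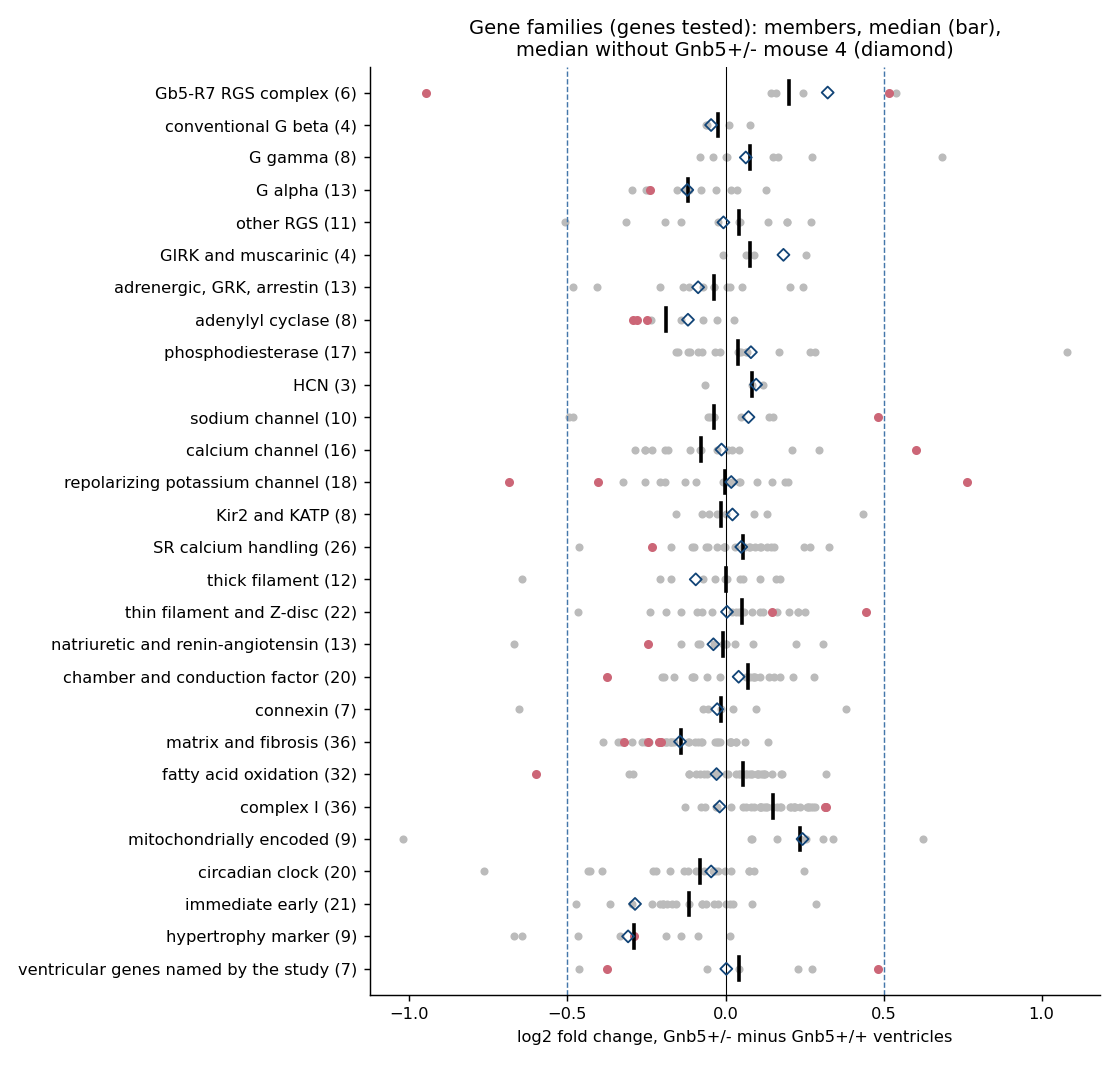
Log2 fold changes of the tested members of 28 gene lists (number tested in brackets), in red at an unadjusted p below 0.05, with the list median as a bar and the median without Gnb5+/- mouse 4 as a diamond. Most members lie within ±0.5 (dashed), the complex I bar at 0.15 has its diamond at -0.02, and the Gnb5 point at -0.95 stands at the left of its list.

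Of the partners of Gβ5, 5 were tested beside Gnb5 and none was called. Rgs6, the R7 member best known in the heart, ranged from 16.1 to 18.6 CPM (median 17.5) in Gnb5+/- and from 11.6 to 20.4 CPM (median 14.6) in Gnb5+/+ mice. The groups overlapped, and the log2 fold change was 0.14 (95% interval -0.12 to 0.40), so a change beyond 0.40 lies outside the interval. Rgs7 had a log2 fold change of 0.52 (0.03 to 1.01) with a level of 1.20 to 2.37 CPM in Gnb5+/- and 0.824 to 1.76 CPM in Gnb5+/+ mice. By exact permutation it reached p = 0.0325 without adjustment, and the edgeR fit gave 0.961 after adjustment. Rgs7bp, which anchors R7 dimers to membranes, was at 0.24 (-0.20 to 0.69), and at 0.37 without mouse 4. Rgs11 at 0.16 and Gpr158, an orphan receptor that binds R7 dimers, at 0.54 were under 1 CPM, and their intervals reached 1.02 and 1.51. Without mouse 4 they were at 0.28 and 0.70. Rgs9, Rgs9bp and Gpr179 did not pass the filter, with at most 0.400 CPM in any of the 12 mice.

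None of the 4 conventional β subunits was called, and of them Gnb1 was the most tightly bounded. Gnb1 was at 86.9 to 102 CPM in Gnb5+/- and 85.3 to 95.3 CPM in Gnb5+/+ mice, with a log2 fold change of 0.01 (-0.12 to 0.14), which leaves out changes over 1.10-fold. For Gnb4 the value was 0.08 (-0.11 to 0.27) and for Gnb2 -0.06 (-0.44 to 0.31), or -0.25 (-0.57 to 0.07) without mouse 4. Gnb3 varied most between mice, from 2.86 to 8.57 CPM in Gnb5+/- and from 3.34 to 10.1 CPM in Gnb5+/+ mice, and its interval of -0.59 to 0.48 was correspondingly wide. In Gnb5-/- mice its log2 fold change was 0.92 (adjusted p = 0.293 in the edgeR fit). The study, which tested with DESeq2, reported a significant rise of Gnb3 RNA in Gnb5-/- ventricles. By immunoblot it could not detect Gnb3 protein in the ventricles or atria of these mice and saw no compensatory change.

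**Figure D4:**
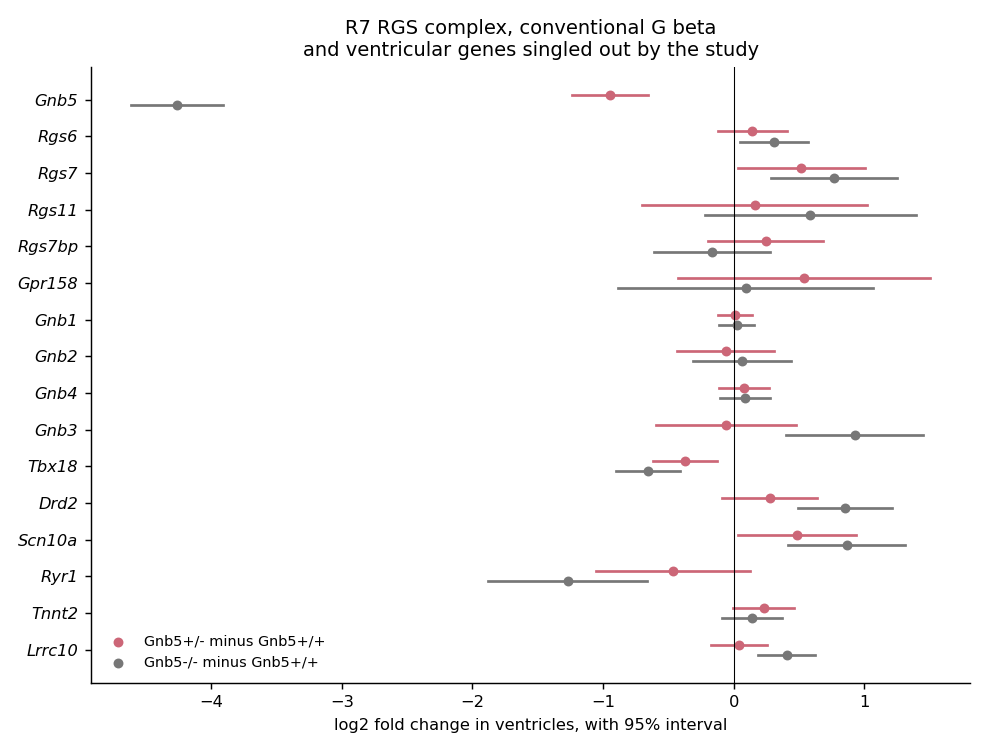
Log2 fold change with 95% interval of Gnb5, its R7 RGS partners, the conventional β subunits and the ventricular genes singled out by the study, for Gnb5+/- (red) and Gnb5-/- (grey) against the same 6 Gnb5+/+ mice. Only the Gnb5 interval, from -1.24 to -0.65, lies beyond -0.5 in Gnb5+/- mice, and Gnb1 has the narrowest at -0.12 to 0.14.

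The α and γ subunits gave 0 calls of 13 and 8 tested. The α subunits had a median of -0.12, and Gnai2 and Gnas, an inhibitory and a stimulatory subunit, were bounded at 0.19 and 0.21. Gna13 was the 1 member at an unadjusted p below 0.05, at -0.24 (-0.46 to -0.02), and at -0.15 without mouse 4. Gng5 was at 0.15 (-0.09 to 0.39) and Gng4, under 1 CPM, at 0.68 (-0.05 to 1.42), or 0.78 (0.02 to 1.54) without mouse 4. The 11 other RGS genes had a median of 0.04, from Rgs17 at -0.51 to Rgs10 at 0.27, and Rgs5 was at 0.04 (-0.17 to 0.26).

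For the channel and receptor that the vagal signal acts on, 4 genes were tested and none was called. Chrm2, the M2 receptor gene, ranged from 90.7 to 226 CPM (median 170) in Gnb5+/- and from 144 to 181 CPM (median 160) in Gnb5+/+ mice. The wider range in Gnb5+/- mice gave an interval of -0.24 to 0.43 around 0.09, and the value without mouse 4 was 0.22 (-0.03 to 0.47). Kcnj3 and Kcnj5 encode the 2 GIRK subunits of the heart. Kcnj3 was at 0.26 (-0.01 to 0.52) and at 0.31 (0.05 to 0.57) without mouse 4, and the Kcnj5 bound was 0.31.

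Adrenergic receptors, their kinases and arrestins gave 0 calls of 13, with a median of -0.04, and Adrb1, the main cardiac β-adrenergic receptor gene, had a bound of 0.37. Grk2, the main kinase of β-adrenergic receptors, was at -0.12 (-0.26 to 0.03), and at -0.14 (-0.27 to -0.004) without mouse 4. Of 8 adenylyl cyclases, which make cyclic AMP, none was called and 3 had an unadjusted p below 0.05, all lower. Adcy7 was at -0.29 (-0.51 to -0.08), Adcy6, with Adcy5 the main ventricular form, at -0.28 (-0.51 to -0.06), and Adcy4 at -0.25 (-0.44 to -0.06). Adcy6 ranged from 116 to 171 CPM in Gnb5+/- and from 138 to 215 CPM in Gnb5+/+ mice, so the groups overlapped. The list median was -0.19, and -0.12 without mouse 4. Of 17 phosphodiesterases, which break cyclic nucleotides down, none had an unadjusted p below 0.05, the median was 0.04, and 14 lay within ±0.5, Pde3a at -0.02 (-0.30 to 0.27) and at 0.10 without mouse 4.

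Ion channels gave 0 calls in 5 lists. The 3 HCN pacemaker channel genes had a median of 0.08, with Hcn2 at 0.12 (-0.29 to 0.53). Scn10a, a sodium channel gene that the study singled out, ranged from 2.20 to 4.14 CPM (median 3.68) in Gnb5+/- and from 1.38 to 3.49 CPM (median 2.76) in Gnb5+/+ mice. The groups overlapped and the value was 0.48 (0.03 to 0.93). Cacna1c, the L-type calcium channel pore, was at -0.11 (-0.47 to 0.25), with 130 CPM in mouse 4 against 336 to 372 CPM in the other Gnb5+/- mice, and at 0.05 without it. Cacnb4, an auxiliary calcium channel subunit, was at 0.60 (0.14 to 1.07), and at 0.74 without mouse 4.

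Among 18 repolarising potassium channel genes, Kcne1, the auxiliary subunit of the slow delayed rectifier, had the smallest unadjusted p. It ranged from 5.83 to 11.2 CPM (median 6.42) in Gnb5+/- and from 3.12 to 6.00 CPM (median 4.37) in Gnb5+/+ mice. The groups overlapped only by the lowest Gnb5+/- and the highest wild-type mouse. The log2 fold change was 0.77 (0.32 to 1.21; exact permutation p = 0.00433, adjusted p = 0.961 in the edgeR fit), between 0.62 and 0.86 when single mice were left out. Its pore-forming partner Kcnq1 had a bound of 0.29. Kcne4 at -0.40 (-0.77 to -0.04) and Kcnc1 at -0.68 (-1.36 to -0.01) were the other members at an unadjusted p below 0.05, and Kcnk3 was at -0.13 (-0.32 to 0.06). Without mouse 4 the interval of Kcnc1 included 0, at -0.55 (-1.24 to 0.13). Of the Kir2 and KATP channel genes Abcc9 was at 0.09 (-0.24 to 0.42), or 0.24 (0.07 to 0.41) without mouse 4, and Kcnj8 at 0.13 (-0.07 to 0.34).

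Contraction and calcium release genes were bounded about as tightly as all genes tested, whose median bound was 0.41. The list medians were 0.36 for sarcoplasmic reticulum calcium handling, 0.41 for the thick filament and 0.42 for the thin filament and Z-disc. Of 26 sarcoplasmic reticulum calcium handling genes 19 lay within ±0.5 and none was called. Atp2a2, the calcium pump SERCA2, was at -0.10 (-0.31 to 0.11), Ryr2 had a bound of 0.41 and Pln, which inhibits the pump, 0.28. Jph2, a junctophilin that holds the reticulum to the T-tubules, was at -0.23 (-0.45 to -0.01) and at -0.30 without mouse 4. Ryr1, the skeletal muscle ryanodine receptor, was under 1 CPM and at -0.46 (-1.05 to 0.12), and at -0.68 (-1.26 to -0.11) without mouse 4.

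Myh6, the main myosin heavy chain of the adult mouse ventricle, was at -0.003 (-0.24 to 0.24), whereas Myh7, the fetal isoform, varied between mice from 50.2 to 222 CPM in Gnb5+/- and from 94.6 to 282 CPM in Gnb5+/+ mice and was at -0.64 (-1.37 to 0.08). Neither was called, and the other thick filament genes had bounds of 0.18 to 0.98. In the thin filament and Z-disc Tnnt1, the slow skeletal troponin T, was at 0.44 (0.13 to 0.76) and Lmod3, an actin nucleator, at 0.15 (0.01 to 0.29). Tnnt2, cardiac troponin T, ranged from 3869 to 5965 CPM in Gnb5+/- and from 3455 to 4249 CPM in Gnb5+/+ mice. Its log2 fold change was 0.23 (-0.003 to 0.46), and 0.13 without mouse 4, which had the highest value. Lrrc10 was at 0.04 (-0.17 to 0.26), Actc1 at 0.08 (-0.16 to 0.33) and Ankrd1 at -0.14 (-0.55 to 0.27).

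The hypertrophy marker list had the lowest median, -0.29, but this rested on 1 wild-type mouse. The median was 0.02 without Gnb5+/+ mouse 17, whose summed level of these markers was 6127 CPM against a wild-type median of 2804 CPM, and -0.31 without Gnb5+/- mouse 4. None of its 9 tested genes was called, and 1 had an unadjusted p below 0.05, Mybpc2, a myosin-binding protein, at -0.29 (-0.57 to -0.01). Nppb, the gene of the natriuretic peptide BNP, was at -0.67 with a bound of 1.38, while Nppa had a bound of 0.58. Without Gnb5+/- mouse 4, 3 genes of the list had an unadjusted p below 0.05, all lower, and 0 were called. They were Mybpc2, Rcan1 and Nppb, the last at -0.90. Only 1 of the 9 genes, the growth factor gene Ccn2, was within ±0.5, and 6 of 9 were within ±1. In the natriuretic and renin-angiotensin list Furin, a protease that cuts pro-BNP, was at -0.25 (-0.48 to -0.01), or -0.17 (-0.37 to 0.03) without mouse 4, and Corin, which cuts pro-ANP, at 0.0004 (-0.23 to 0.23).

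Of 20 tested chamber and conduction factors 15 lay within ±0.5. Tbx18, a transcription factor of the sinus horn and epicardium on chromosome 9 at 12.4 Mb from Gnb5, was the 1 member at an unadjusted p below 0.05. It ranged from 2.41 to 3.50 CPM (median 3.12) in Gnb5+/- and from 3.34 to 4.47 CPM (median 4.06) in Gnb5+/+ mice. The 2 groups overlapped narrowly, and the log2 fold change was -0.37 (-0.62 to -0.13). Mef2a was at 0.09 (-0.14 to 0.32), and at 0.19 (0.04 to 0.33) without mouse 4. Gja1, the main ventricular connexin, was at 0.02 (-0.18 to 0.22), and Gjc3 at -0.65 (-1.51 to 0.21) was under 1 CPM.

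The 36 matrix and fibrosis genes had a median of -0.14, and of -0.04 without Gnb5+/+ mouse 17. None was called, 4 had an unadjusted p below 0.05, all lower, and 9 without Gnb5+/- mouse 4. The collagen Col15a1 ranged from 75.7 to 96.4 CPM (median 83.2) in Gnb5+/- and from 80.9 to 128 CPM (median 103) in Gnb5+/+ mice. The groups overlapped and the log2 fold change was -0.32 (-0.54 to -0.10). Col4a1, a basement membrane collagen, was at -0.25 (-0.43 to -0.06), Col6a2 at -0.20 (-0.39 to -0.02), Tgfb3 at -0.21 (-0.42 to -0.003, or -0.40 to 0.02 without mouse 4), and the proteoglycan Dcn at 0.13 (-0.04 to 0.31). The intervals of 27 of 36 genes lay within ±0.5. The 7 tested fibroblast markers summed to 1463 to 2031 CPM in Gnb5+/- and 1440 to 1771 CPM in Gnb5+/+ mice with a median log2 fold change of -0.05, and their part in the matrix values was not tested. In bulk tissue fewer cells of a type and less RNA per cell cannot be told apart.

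Energy metabolism lists moved with mouse 4. The 36 nuclear complex I genes, most of them short, had a median of 0.15 with 2 at an unadjusted p below 0.05, both higher, and a median of -0.02 with 0 higher and 2 lower without mouse 4. Ndufb10 was at 686 CPM in that mouse and at 361 to 412 CPM in the other Gnb5+/- mice. Its log2 fold change of 0.32 (0.01 to 0.63) became 0.13, as did that of Ndufs6, from 0.32. Of 32 fatty acid oxidation genes 23 lay within ±0.5. Lpl was at 0.10 (-0.07 to 0.27), and Cpt1b, the muscle carnitine palmitoyltransferase, at -0.60 (-1.16 to -0.04), or -0.51 (-1.09 to 0.07) without mouse 4. Few reads were counted on Cpt1b, at 1.05 to 2.54 CPM in Gnb5+/- and 1.48 to 3.81 CPM in Gnb5+/+ mice. The cause of this low level was not tested.

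The 9 tested genes of the mitochondrial genome had a median of 0.24 and wide intervals, with mt-Co1 at 0.08 (-0.19 to 0.36) and mt-Atp6 at -1.02 (-2.18 to 0.14). The mt-Atp6 value rested on Gnb5+/+ mouse 15, at 1.68 CPM where the other 11 mice had 0.540 CPM or less, and was -0.26 without it. Genes that follow the time or handling of dissection varied strongly between mice of 1 genotype. The 20 clock genes had a median of -0.08, with Nr1d1 at -0.39 (-0.89 to 0.10) and Nr1d2 at -0.03 (-0.38 to 0.32). The 21 immediate early genes had a median of -0.12, between -0.29 without Gnb5+/- mouse 4 and 0.06 without Gnb5+/+ mouse 7, only 3 of them within ±0.5, and Jun was at -0.04 (-0.53 to 0.46), or -0.20 without mouse 4, and Egr3 at -0.36 (-1.07 to 0.34).

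The genes of smallest p after the 3 called had adjusted p of 0.934 or 0.961, and none was a member of the G protein lists. Gm7049, a processed pseudogene 98.4% identical to Me1, which lies at 11.2 Mb from Gnb5 on chromosome 9, had 9 to 14 reads in each Gnb5+/- and 3 to 8 in each Gnb5+/+ mouse. The groups did not overlap, and the log2 fold change was 1.23 (0.65 to 1.81), with Me1 itself at 0.17 (-0.0002 to 0.33). Reads of such a pair may be placed on either copy.

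Trim68, a ubiquitin ligase gene, was at 13.3 to 14.6 CPM (median 13.8) in Gnb5+/- and 8.04 to 12.9 CPM (median 10.1) in Gnb5+/+ mice. The groups were apart by a small margin, and the log2 fold change was 0.45 (0.21 to 0.68). Rpp40, a subunit of ribonuclease P, at 0.43 (0.18 to 0.67) and the antisense transcript 4921504A21Rik at 0.49 (0.23 to 0.74) also did not overlap between groups. The secreted glycoprotein gene Stc2 at 0.50 (0.23 to 0.77), the zinc transporter Slc30a2 at 1.55 (0.73 to 2.37) and the antisense transcript Gm11837 at 0.95 (0.40 to 1.504) overlapped between groups. Cldnd1 was at -0.40 (-0.62 to -0.18), Sbno2 at -0.37 (-0.58 to -0.16) and Zc3h12a, the ribonuclease Regnase-1, at -0.42 (-0.66 to -0.18).

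H2-Ob, a class II chain of B cells, was at 1.20 to 2.03 CPM in Gnb5+/- and 0.600 to 1.25 CPM in Gnb5+/+ mice, or 0.77 (0.33 to 1.22) on the log2 scale, and the groups overlapped narrowly. Of the lymphocyte markers tested, Cd79a was at 0.72, Cd79b at 0.71 and Ms4a1 at 0.70 with bounds over 1, the first 2 at an unadjusted p below 0.05. All 8 listed lymphocyte markers, tested or not, summed to 3.40 to 7.30 CPM in Gnb5+/- and 2.35 to 4.96 CPM in Gnb5+/+ mice. Their part in the H2-Ob value was not tested.

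Gm7993, a processed pseudogene 95.8% identical to Odc1, was present in some mice only. It had 5.38, 6.97 and 10.7 CPM in Gnb5+/- mice 13, 2 and 4, and at most 0.03 CPM in the other 3. All 6 Gnb5+/+ mice were at 0.07 CPM or less, and of the Gnb5-/- mice 3 were at 6.25 to 7.92 CPM and 3 at 0.09 CPM or less. The fitted log2 fold change of 6.83 (SE 1.79; 6.19 without mouse 4) therefore rests on 3 mice, and the exact permutation p was 0.16.

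In the same fit 28 genes (0.188%) were called between Gnb5-/- and Gnb5+/+ ventricles, where 4.78% had an unadjusted p below 0.05. Of the 28, 20 were on chromosome 9. That chromosome held Gnb5, 244 genes within 20 Mb of it and 597 farther out among the 14866 tested. An unadjusted p below 0.05 in Gnb5+/- mice was reached by 12 of the 28, against 4.84% of all genes tested. Both comparisons use the same 6 Gnb5+/+ libraries, so this count is a description, and each gene's own values are given side by side, Gnb5+/- first. Besides Gnb5 (-0.95 and -4.26), Fam81a (1.12 and 1.40) and Oaz2-ps (3.27 and 4.24), the 9 others were Gm7049 (1.23 and 2.41), Snap91 (-0.75 and -3.03), Tbx18 (-0.37 and -0.66), Gm28231 (0.74 and 1.43), Hemk1 (0.44 and 1.25), Guca1b (0.70 and 1.36, the former 0.49 with an interval of -0.04 to 1.02 without mouse 4), Sh3bgrl2 (-0.32 and -0.67), Ephb1 (1.21 and 2.40) and Slc38a3 (-0.34 and -0.81).

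The remaining 16 genes called in Gnb5-/- mice had intervals that included 0 in Gnb5+/- mice, but without mouse 4 those of Rpl29, Gm5561 and Ctsh did not. Several were tightly bounded there, but at Mrpl3, Parp3 and Abhd14b single mice departed from the level of their genotype, as given below. Ntn1, a guidance factor gene on chromosome 11, was at -0.04 (-0.24 to 0.16) beside 0.59 in Gnb5-/- mice. Mrpl3, a mitochondrial ribosomal protein gene, was at 0.01 (-0.16 to 0.19) beside -0.44, Nprl2, a subunit of the GATOR1 complex, at 0.13 (-0.04 to 0.29) beside 0.48, and Parp3 at -0.15 (-0.37 to 0.06) beside -0.72. Plagl1 was at 0.15 (-0.14 to 0.44) beside 0.83, Ppm1m at 0.24 (-0.01 to 0.49) beside 0.63, and Drd2, the dopamine D2 receptor gene, at 0.27 (-0.09 to 0.64) beside 0.85.

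Rpl29 was at -0.42 (-0.93 to 0.09), or -0.75 (-1.15 to -0.35) without mouse 4, beside -2.80, and Gm5561, a processed pseudogene 98.3% identical to it, at -0.53 (-1.37 to 0.32), or -0.86 (-1.70 to -0.02) without mouse 4, beside -6.16. Hmgn3 was at -0.08 (-0.40 to 0.23) beside -1.11 and Abhd14b at -0.07 (-0.33 to 0.20) beside -0.75, and without mouse 4 they were at -0.22 and -0.19. Gm10635 was at -0.25 (-0.84 to 0.34) beside -2.01, Gm9917 at -0.23 (-0.59 to 0.13) beside -0.99 and Ctsh at -0.18 (-0.43 to 0.07), or -0.26 (-0.50 to -0.03) without mouse 4, beside -0.63. On other chromosomes Scgb1c1 was at 0.20 (-0.24 to 0.64), or 0.04 without mouse 4, beside 1.14 and Gm31520 at -0.06 (-0.69 to 0.58) beside 1.49.

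**Figure D5:**
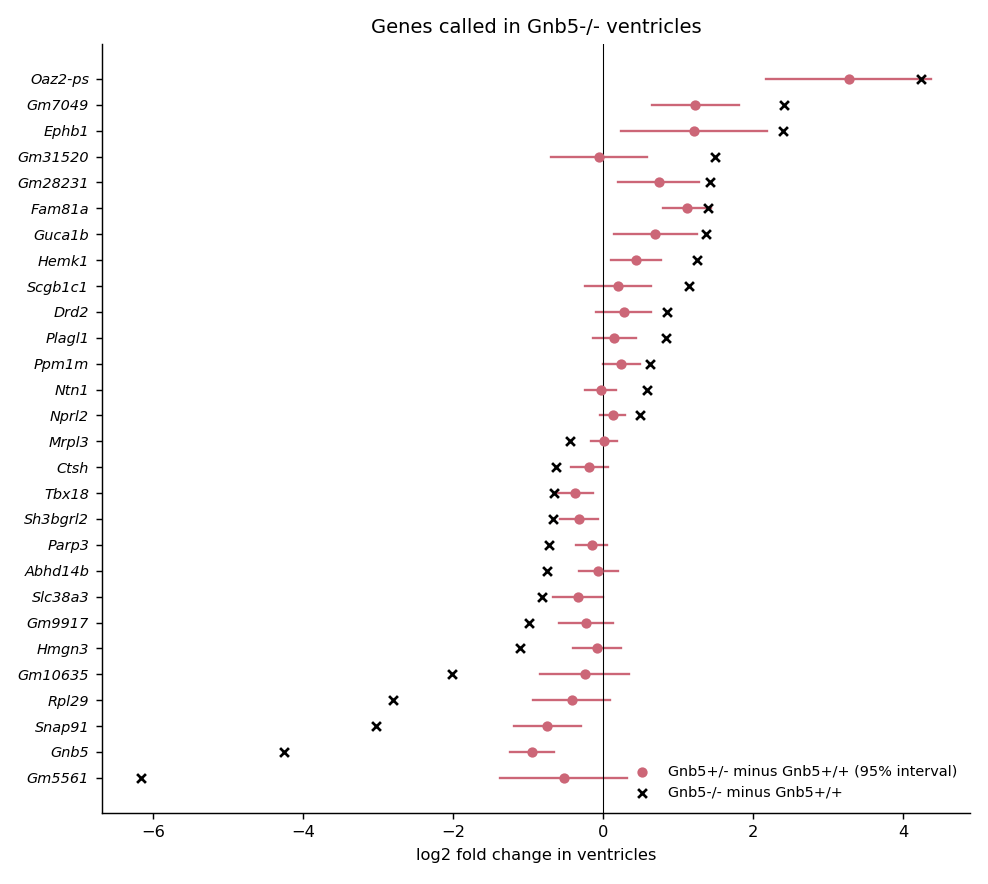
Log2 fold change of the 28 genes called in Gnb5-/- ventricles, in Gnb5+/- mice (red, with 95% interval) and in Gnb5-/- mice (crosses), both against the same 6 Gnb5+/+ libraries. Points lie between -0.95 and 3.27 in Gnb5+/- and between -6.16 and 4.24 in Gnb5-/- mice, and 16 of the 28 intervals include 0 with all 6 Gnb5+/- mice.

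At some chromosome 9 genes single mice departed from the level of their genotype. The genes that follow were picked after their values were seen. Ephb1, a receptor tyrosine kinase gene 26.6 Mb away, was at 17.7 to 23.5 CPM in 4 Gnb5+/- mice but at 3.33 and 2.95 CPM in mice 13 and 4, and at 2.80 to 4.68 CPM in 5 Gnb5+/+ mice but at 18.0 CPM in mouse 15. Gnb5-/- mice were at 24.3 to 40.4 CPM. The same 3 mice departed at Hemk1, at 32.0 Mb, with 13.03 and 13.8 CPM in mice 13 and 4 against 17.1 to 22.3 CPM in the other Gnb5+/- mice, and 19.7 CPM in mouse 15 against 9.87 to 14.7 CPM in the other Gnb5+/+ mice. At Rpl29, 31.1 Mb away, mice 13 and 4 held 6.02 and 10.8 CPM against 3.26 to 4.08 CPM, and mouse 15 held 4.67 CPM against 6.72 to 8.39 CPM.

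Mrpl3, Abhd14b and Slc38a3, at 29.7, 31.1 and 32.3 Mb, also followed these 3 mice. Mice 13 and 4 were the highest Gnb5+/- mice, at 70.2 and 68.1 CPM for Mrpl3 and 11.7 and 15.3 CPM for Abhd14b. For Slc38a3 they were at 92.3 and 75.5 CPM. In these genes mouse 15 was the lowest Gnb5+/+ mouse, at 52.7, 8.79 and 54.1 CPM. Not every gene at such distances followed all 3 mice. At Parp3, also 31.1 Mb away, mouse 4 was within its group at 53.6 CPM. At Ppm1m, 30.9 Mb away, mouse 4 was at 7.15 CPM within the 5.17 to 7.46 CPM of its group, and at Nprl2, at 32.2 Mb, mice 13 and 4 were the lowest and highest Gnb5+/- mice at 11.8 and 15.9 CPM. Nearer genes also varied, Hmgn3 at 7.76 Mb being at 4.17 CPM in mouse 4 and at 2.23 to 2.91 CPM in the other Gnb5+/- mice.

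For Gm28231, a noncoding gene 12.9 Mb away, Gnb5+/- mice ranged from 1.01 to 1.70 CPM, and 5 wild-type mice from 0.582 to 0.705 CPM, but mouse 15 was at 1.82 CPM. Snap91, a clathrin assembly gene at 11.4 Mb, was at 3.08 to 4.93 CPM in Gnb5+/- mice, at 5.94 to 11.3 CPM in 5 wild-type mice and at 4.12 CPM in mouse 15, whose Gnb5 level of 18.7 CPM was within the wild-type range. Without mouse 4 the log2 change of Ephb1 was 1.42. Without mouse 15 it was 1.87 for Ephb1 and 1.13 for Gm28231, the latter then called, and the number of calls was 5 instead of 3. The cause of these departures was not tested.

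Within 20 Mb of Gnb5, 244 genes of chromosome 9 were tested, 1 of them called, Fam81a (Gnb5 itself is not counted), and 10 higher and 8 lower had an unadjusted p below 0.05 (7.38%, against 4.69% on other chromosomes and 7.20% farther out on chromosome 9). Their median log2 fold change was 0.02 and 68.4% lay within ±0.5, against 64.6% on other chromosomes. Within 5 Mb 62 genes were tested, none was called, and 2 were higher and 1 lower at an unadjusted p below 0.05.

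The effect of 1 lost copy was also set against that in the atria of the same mice, where 2 of 16181 genes (0.0124%) were called, Gnb5 and Fam81a, and 1169 (7.22%) had an unadjusted p below 0.05. Gnb5 changed alike, by -0.93 in atria, and the difference of ventricles minus atria was -0.01 (95% interval -0.34 to 0.31). Fam81a rose by 2.36 in atria, and the difference was -1.33 (-1.78 to -0.88, adjusted p = 0.0543), short of the threshold. No gene of 16507 was called for a difference between the tissues by edgeR, and 865 (5.24%) had an unadjusted p below 0.05.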

How the data were processed

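RNA-seq counts of 12 Gnb5+/- and Gnb5+/+ ventricular libraries were analysed, with 6 Gnb5-/- ventricular libraries in the same fit. The authors prepared stranded total RNA libraries, trimmed the single-end reads with Cutadapt 1.8, removed ribosomal and low-complexity reads, aligned to GRCm38 with STAR 2.5.3a and counted with htseq-count (HTSeq 0.9.1) on Ensembl genes, and the deposited values are these raw counts. The strand setting of the counting is not given in the sources used here, so antisense pairs may share reads. Reads placed at several sites were not counted, which lowers genes with near-identical copies.

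Groups came from the labels. Genes were filtered with filterByExpr (count minimum 10) and tested with edgeR 4.0.16 (TMM, glmQLFit, glmQLFTest) in R 4.3.3, with genotype as the only term and Benjamini-Hochberg adjustment over all genes tested. Unadjusted p values and 95% intervals are per gene, the interval being the fold change ± the t quantile times the SE, and the SE the fold change over the square root of F. Permutation tests were exact over the 924 divisions of 12 mice (log2 CPM, prior count 2). The difference between ventricles and atria was fitted over 36 heart libraries with mouse as a block. Precision rests on the spread between mice, which includes counting error. The scripts were tested on simulated data. Pseudogenes were aligned to protein-coding GENCODE M21 transcripts with BLAST+ 2.17.0.

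The replicate numbers of the labels join different mice and were not taken as pairs. No 2 libraries agreed within sampling noise. The comparison, gene lists and named genes were chosen with earlier results of these data known. Genes were named by rule (Gnb5, called genes, the 15 of smallest p, all members of the R7 RGS, conventional β and study's ventricular lists, in other lists the member of smallest p, of highest level or at an unadjusted p below 0.05, and genes called in Gnb5-/- ventricles). Further list members are named for their bounds, and Oaz2, Me1, Gm11868, Cyb5r4 and Odc1 were added after their values were seen. Alternatives were DESeq2 1.42.0, RLE factors, a block on the replicate number, limma-voom (limma 3.58.1), 2 other filters, a surrogate variable from sva 3.50.0, 12 libraries only, robust empirical Bayes and fits without each mouse. Sample weights in limma-voom were added after seeing the data. Some genes that this rule selects are not reported here.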

Additional observations from a re-analysis of the deposited data

Results flagged for a closer look

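Of 228 sets of 6 values examined (each named gene and 5 library measures, in both genotypes), 26 held 1 mouse set apart from the other 5 by Dixon's criterion for 6 samples, where chance gives about 1 in 20. In 16 of them the mouse was Gnb5+/- mouse 4. Its share of reads outside genes was 2.85% (4.61% to 4.81% in the other Gnb5+/- mice), its position on the first principal component 72.5 and its median correlation with the other libraries 0.959. It was low in Abcc9 (203 CPM), Atp2a2 (7824 CPM), Cacna1c (130 CPM), Cacnb4 (0.678 CPM), Corin (155 CPM), Gna13 (19.0 CPM), Mef2a (145 CPM), Myh6 (13529 CPM) and Pde10a (2.00 CPM). The same mouse was high in Gnas (696 CPM), Ndufb10 (686 CPM), Oaz2 (91.5 CPM) and Tnnt2 (5965 CPM).

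Among Gnb5+/+ mice, mouse 15 was high in Ephb1 (18.0 CPM, others 2.80 to 4.68) and Gm28231 (1.82 CPM, others 0.582 to 0.705) and low in Parp3 (47.2 CPM, others 58.4 to 65.9), all on chromosome 9, and low in Adcy4 (19.6 CPM, others 23.9 to 25.6). Mouse 17 was low in Lrrc10 (47.4 CPM), and mouse 8 had the largest share of reads outside genes (5.52%). In Gnb5+/- mice, mouse 9 was high in 4921504A21Rik (4.76 CPM) and Gnb4 (17.2 CPM), mouse 2 in Gjc3 (0.267 CPM) and mouse 6 in Rgs11 (0.587 CPM).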

How the results depend on the processing

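The 3 calls were the same genes with DESeq2, RLE factors, no filter on low counts, robust empirical Bayes and 1 surrogate variable, and limma-voom, with or without sample weights, called them and Gm11868. With 10 counts required in every library Oaz2-ps was not tested and 2 genes were called. With the Gnb5+/- and Gnb5+/+ libraries alone 1 gene was called, Gnb5, and Fam81a was at 1.12 (adjusted p = 0.0859). With the replicate number as a block, which joins different mice, 0 genes were called by edgeR and 599 had an unadjusted p below 0.05, with Gnb5 at -0.95 (adjusted p = 0.0891), Fam81a at 1.13 (0.0825) and Oaz2-ps at 3.33 (0.111), where the deviations of same-numbered libraries correlated between -0.161 and 0.147 and 1 of the 6 numbers had its own partner as best match, a hint from the data and not the design. Leaving out 1 mouse gave 1 to 5 calls and a Gnb5 log2 fold change of -1.01 to -0.91, where Gnb5 was lost without Gnb5+/- mouse 11 or 6. Fits of the difference between tissues without 1 mouse called 0 or 1 gene, the 1 being Fam81a without Gnb5+/+ mouse 16 or 17 (-1.59 and -1.42), and 0 without the mouse block or with 24 libraries. The share of genes within ±0.5 fell to 35.8% with no filter on low counts, which tests 28305 genes. With sample weights, where mouse 4 had a weight of 0.115, 2070 genes (13.9%) had an unadjusted p below 0.05. No list median moved by more than the spread between mice, either under the 10 other settings or in the 12 fits without 1 mouse. That spread is wide for some lists. Without single mice the hypertrophy list went from -0.34 to 0.02 and the immediate early list from -0.29 to 0.06. The causes of the lost calls were not tested. Depth limits genes under 1 CPM, of which 39.3% have intervals that allow a change of 1 (log2) or more.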

Other observations

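Adipocyte and erythroid markers belong to none of the families above. The 6 tested adipocyte markers had a median log2 fold change of -0.82 (-0.42 without Gnb5+/+ mouse 17), 2 of them at an unadjusted p below 0.05 and none called. All 9 listed adipocyte markers, tested or not, summed to 5.31 to 8.605 CPM in Gnb5+/- mice. In Gnb5+/+ mice they summed to 4.60 to 24.6 CPM, where the highest value was in mouse 17. The 7 erythroid markers summed to 274 to 2389 CPM in Gnb5+/- mice, the highest in mouse 4, and to 216 to 1076 CPM in Gnb5+/+ mice. Their median was 0.65, and 0.24 without mouse 4. The inducible heat shock genes Hspa1a and Hspa1b, singled out after their values were seen, had log2 fold changes of -2.21 and -2.64 with adjusted p of 0.961, and were at 19.98 ± 29.3 and 16.7 ± 25.9 CPM (SD, n = 6) in Gnb5+/+ mice, so that the spread between mice exceeded the mean.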
